A study of Solanum tuberosum with 72 samples.

Results

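Leaves of potato seedlings held in salt for 27 h were compared with leaves of seedlings held without stress for the same time. The comparison rests on 6 of the 72 arrays of the series, 3 labelled salt 27 h and 3 labelled no stress 27 h, chosen by their titles and not by any measured value. All were hybridised with leaf RNA of Solanum tuberosum variety Gilroy. Seedlings from true seed grew for 5 weeks on rafts over hydroponic medium at 25 °C, with a day of 16 h and a night of 8 h. In the salt group the medium was then exchanged for medium with added NaCl, whose dose the labels give as 150 mM where they name the source and as 100 mM where they describe the treatment. In the no-stress group the medium was exchanged in the same way without NaCl. Every sample pooled 6 plants from 2 boxes, and the whole experiment was carried out 3 times. The aerial tissue was collected apart from the roots, and the labels call it leaves. Further groups of 3 arrays serve for comparison: salt at 3 h and 9 h in leaf, cold (4 °C) at 27 h in leaf and salt at 27 h in root, with their own no-stress arrays except that cold shares the no-stress 27 h arrays with salt.

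Salt in the root medium lowers the water potential around the plant and brings sodium and chloride ions into the shoot. Leaves respond over hours by closing stomata, by fixing less carbon and by rearranging sugar and starch metabolism. Transcripts of defence proteins, of enzymes that make protective solutes and of signalling kinases are known to move in salt-stressed leaves of many plants.

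A probe here is a complementary DNA clone printed on 2 spots, whose deposited log2 ratios were averaged. Each ratio sets the query, carrying Cy3, against a reference pooled from 6 boxes of control leaves taken at 27 h, carrying Cy5, with no dye swap. On the no-stress arrays the query is a further control sample, so these arrays show what the measurement gives without salt. The table does not state the direction of the ratio. Query over reference is the likely reading, since the labels name the channels as query and reference, though the titles name the control first and part of the case was made after values were seen. If it ran the other way, every higher and lower below would change places. Because a ratio compares leaf with leaf, it cannot show that the tissue is leaf. Light-reaction genes had fewer of their possible values on the 36 leaf arrays than on the 36 root arrays. For the 4 clones of cab1, a chlorophyll-binding protein of the antenna, the shares were 12.5% in leaf and 84.0% in root. They were 18.1% and 91.7% for PSBO, 67.1% and 93.1% for PSBR, and 66.7% and 74.1% for psbP. All clones with a value had 88.4% and 83.5%. The spot filter that leaves values empty is not known here, and the cause was not tested.

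The 3 salt arrays held a value at 19359, 19237 and 18608 of 32448 spots, and the no-stress arrays at 20094, 19382 and 16631. Salt arrays correlated with each other across probes at r = 0.82, 0.74 and 0.74, whereas no-stress arrays correlated at 0.30, 0.16 and 0.38. Probes are not independent replicates, and arrays of 1 group share the kind of reference RNA. The median SD between replicates of a probe was 0.17 on the salt arrays and 0.14 on the no-stress arrays. No-stress replicate 3 had the fewest values and was the highest no-stress array for several genes below, among them ChtA1, HPL, SBE1, FBPase and PIN-II. In pooled tissue, fewer cells of a type and less RNA per cell cannot be told apart.

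After 27 h of salt, 1192 of 9906 tested probes (12%) differed from no stress at an adjusted p under 0.05, by limma's moderated test with Benjamini-Hochberg adjustment over all tested probes. Of these, 579 were higher (5.84%) and 613 were lower (6.19%). The median size of a called difference was 0.77 on the log2 scale, and 210 higher and 167 lower probes reached a difference of 1. The median over all tested probes was 0.01. Values of the salt arrays lay wholly outside those of the no-stress arrays at 3476 probes (35.1%), 1742 above (17.6%) and 1734 below (17.5%). The no-stress arrays alone were also tested against a ratio of 1, where limma called 1 of 10151 probes (0.00985%). At an unadjusted p under 0.05 there were 875. The salt arrays alone gave 2785 of 10111 (27.5%), with 3740 at an unadjusted p under 0.05. These tests of 1 group do not check the test of salt against no stress.

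**Figure D1:**
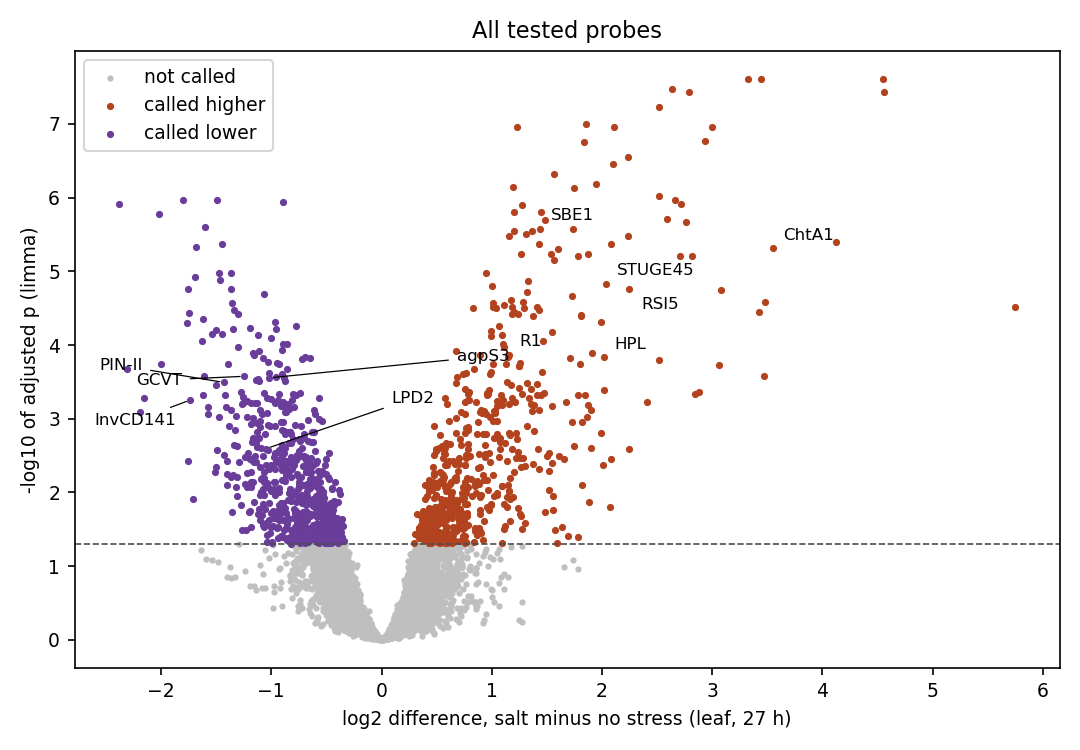
Each of the 9906 tested probes is a point, placed by its log2 difference between salt and no stress in leaf at 27 h (horizontal) and by the -log10 of limma's adjusted p (vertical); the dashed line marks an adjusted p of 0.05. The 579 higher probes reach further from 0 than the 613 lower ones, and labels mark 11 of the genes described in the text, each at its probe with the lowest adjusted p.

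Names could be given to few of these probes. The annotation placed a gene name on 330 tested probes of 186 genes, of which 33 were higher and 19 were lower (15.8%). With the probes of a gene averaged, 20 genes were higher and 13 were lower. No gene had probes called in both directions. Among 180 annotated genes with at least 2 tested probes, counted with those that have a locus number only, 37 had a called probe, all probes were called in 11, and the others were not called in 26. Counts of the gene lists below stand against 5.84% of all tested probes called higher and 6.19% called lower. Most lists are so short that a single call makes a large share.

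The largest increase of a named gene was that of ChtA1, a chitinase, an enzyme that cuts fungal cell-wall chitin and is also made in stressed leaves. Its first probe read 3.78, 2.80 and 3.62 on the salt arrays and -0.69, -0.66 and 0.90 on the no-stress arrays. The second gave 3.72, 2.65 and 3.85 with salt, against -0.52, -0.62 and 0.92 without. All salt values stood far above all no-stress values, although no-stress replicate 3 was itself well above replicates 1 and 2. The log2 differences were 3.55 (SE 0.47, adjusted p = 4.89e-06) and 3.48 (SE 0.51, adjusted p = 2.63e-05). RSI5 followed with 2.84, 2.29 and 2.30 on the salt arrays and 0.24, 0.25 and 0.19 on the no-stress arrays. Its no-stress values were almost equal, and the difference was 2.25 (SE 0.32, adjusted p = 1.71e-05), but 1.25 with quantile normalization between arrays (adjusted p = 0.00687). ChtA1 was the only gene matched to the list of chitinases and pathogenesis-related proteins, so the list's 2 higher of 2 probes restate that gene. PR1B, by its symbol a pathogenesis-related protein gene outside the list, had 0.57 and 0.93 on its 2 probes, neither of them called.

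STUGE45 encodes a UDP-glucose epimerase, which interconverts UDP-glucose and UDP-galactose for cell-wall polymers. The salt arrays gave 2.19, 2.42 and 2.04 and the no-stress arrays 0.06, 0.41 and 0.07. The groups stood apart by more than 1 on the log2 scale, with a difference of 2.04 (SE 0.29, adjusted p = 1.47e-05). With quantile normalization it was 1.20 (adjusted p = 0.00339). The related epimerase gene STUGE51 had differences of 0.61 and 0.73 on its 2 probes, neither of which passed (adjusted p = 0.263 and 0.0767). In the list of cell-wall and UDP-sugar genes 1 of 5 probes was higher and none was lower, with a median difference of 0.61. The pectin esterase PEST2 had a difference of -0.40 (adjusted p = 0.141).

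HPL encodes hydroperoxide lyase, which cleaves fatty acid hydroperoxides into the short aldehydes of green leaf odour. Its probes read 1.19, 2.35 and 2.13 and 1.08, 2.26 and 2.09 on the salt arrays, against -0.20, -0.29 and 0.10 and -0.18, -0.41 and 0.39 on the no-stress arrays. Salt replicate 1 was the lowest of its group on both probes yet above every no-stress value. The differences were 2.02 (SE 0.34, adjusted p = 0.000148) and 1.88 (SE 0.36, adjusted p = 0.000643). The other tested gene of oxylipin synthesis, the lipoxygenase gene LOX-H1, whose enzyme makes fatty acid hydroperoxides, pointed the other way without passing. Across its 4 probes the differences lay between -1.15 and -1.05, with adjusted p-values from 0.189 to 0.214. The first of them read -0.80, -1.71 and -1.62 on the salt arrays and 0.49, -1.27 and 0.10 on the no-stress arrays, so that no-stress replicate 2 fell among the salt values. The list as a whole therefore had 2 higher probes of 6, both of HPL, and a median of -1.07 set by LOX-H1. With probes averaged per gene, 1 of 2 genes was higher and the median was 0.42.

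**Figure D2:**
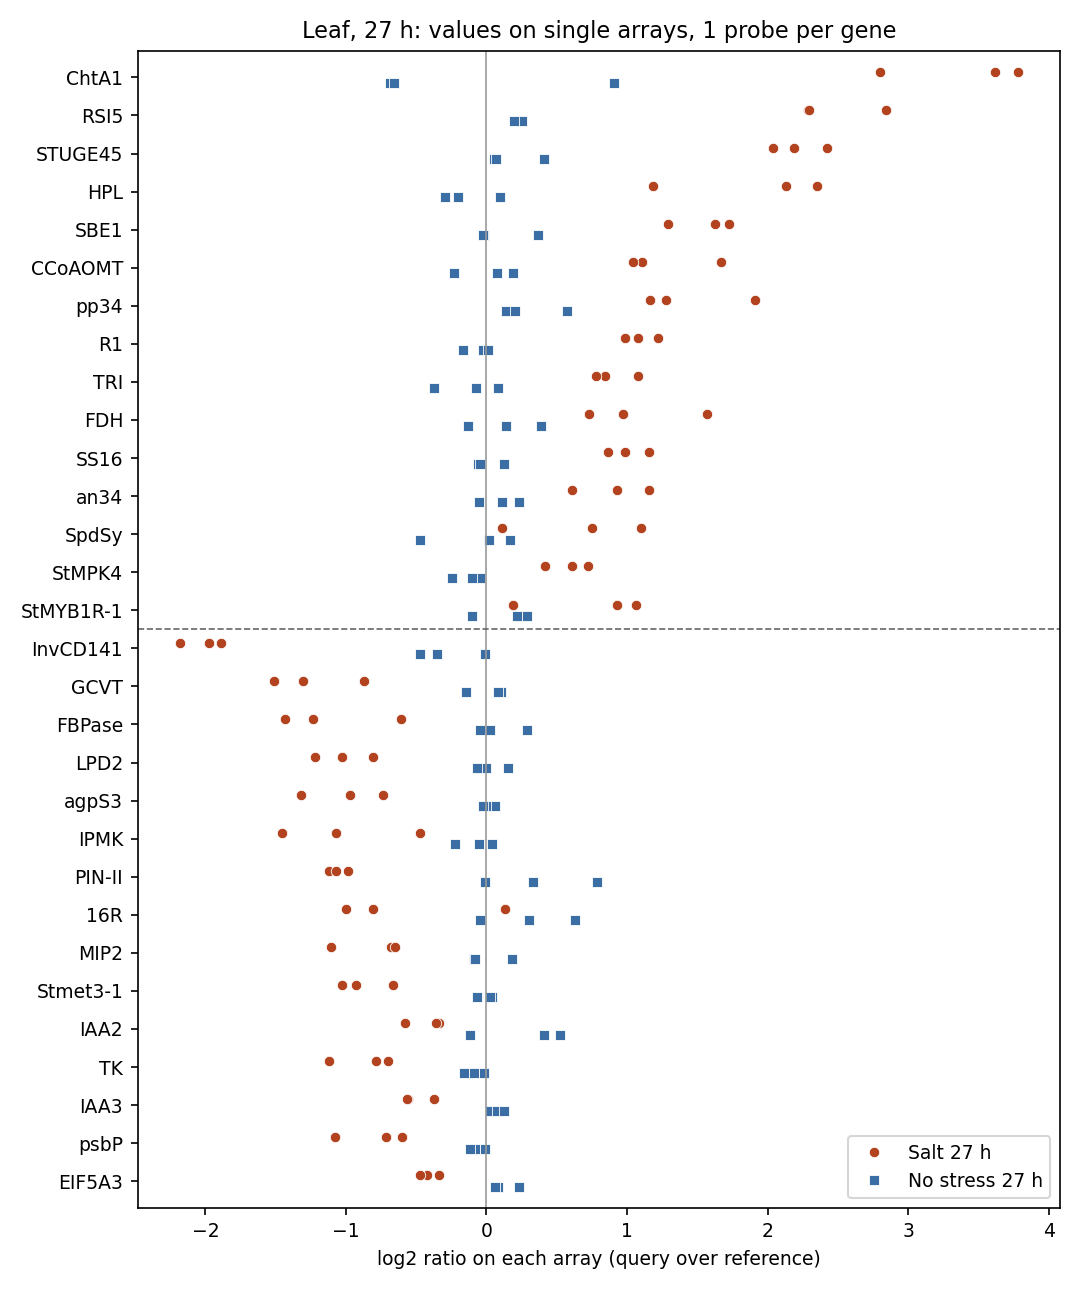
Log2 ratios on the 3 salt arrays (circles, upper row of each gene) and the 3 no-stress arrays (squares, lower row) are drawn for the 15 named genes with the highest and the 15 with the lowest median difference, each by the probe with its lowest adjusted p. The dashed line parts the higher genes from the lower ones; values of SpdSy, StMYB1R-1 and 16R overlap between groups, and no-stress replicate 3 of ChtA1 stands at 0.90.

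Starch genes moved in both directions. SBE1, a branching enzyme that builds the side chains of amylopectin, read 1.73, 1.62 and 1.29 with salt and -0.02, -0.02 and 0.36 without. The gap between the groups was far wider than their spread, at a difference of 1.44 (SE 0.18, adjusted p = 2.63e-06). R1, the glucan water dikinase that phosphorylates starch and opens it to degradation, read 1.22, 0.99 and 1.08 on the salt arrays and -0.02, -0.17 and 0.01 on the no-stress arrays. Its 2 probes were higher by 1.16 (SE 0.19, adjusted p = 0.000135) and 1.05 (SE 0.21, adjusted p = 0.00109), and both groups were tight.

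The opposite was seen for agpS3, a subunit of ADP-glucose pyrophosphorylase, the enzyme that supplies glucose for starch synthesis. It read -0.74, -0.97 and -1.32 with salt and 0.06, -0.01 and -0.03 without. The no-stress values hardly varied, and the gene fell by 1.02 (SE 0.18, adjusted p = 0.000279). The gene agpS2, by its symbol of the same enzyme and outside the starch list, had 0.43 and was not called. Of 10 tested probes in the starch list 3 were higher and 1 was lower, with a median of 0.14. The remaining 6 did not pass, among them GBSS, a granule-bound starch synthase, at -0.29 and -0.27, and AMYA1, an alpha-amylase, at 0.61 (adjusted p = 0.159).

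Genes of sucrose use also parted. InvCD141, a cell-wall invertase that splits sucrose outside the cell, read -2.18, -1.97 and -1.89 on the salt arrays and -0.01, -0.35 and -0.47 on the no-stress arrays. This was the deepest decrease among named genes, at -1.74 (SE 0.33, adjusted p = 0.000558), with no overlap. A second cell-wall invertase gene, InvCD111, had a difference of -0.45 that did not pass (adjusted p = 0.231), and the vacuolar invertase PAIN-1 one of 0.20 (adjusted p = 0.403). SS16, a sucrose synthase that cleaves sucrose inside the cell, read 1.16, 0.99 and 0.86 on the salt arrays and -0.06, -0.05 and 0.12 on the no-stress arrays. Its differences were 1.0 (SE 0.17, adjusted p = 0.000233) and 1.03 (SE 0.20, adjusted p = 0.000826) on 2 probes, whereas the other probe gave 0.21 (adjusted p = 0.297). In the list of sucrose metabolism and sugar transport 3 of 12 probes were higher and 1 was lower, with a median of 0.10. With probes averaged per gene the balance turned, to 1 higher and 2 lower of 6 genes with a median of -0.25. The lower genes were InvCD141 and TPT, the triose phosphate carrier of the chloroplast. TPT is also counted in the list of carbon reduction and photorespiration, and neither of its probes was called singly. The remaining higher probe was SI1, at 0.43 (adjusted p = 0.0468), 1 of the gene's 3 probes. That call was lost when any single array of either group was left out, with adjusted p from 0.0658 without no-stress replicate 3 to 0.173 without no-stress replicate 2.

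Genes of carbon fixation and photorespiration gave lower probes and no higher ones. Of its 10 tested probes 5 were lower, none was higher, and the median difference was -0.70. GCVT, the T protein of the glycine decarboxylase complex that releases carbon dioxide in photorespiration, read -0.87, -1.30 and -1.51 with salt and 0.10, -0.14 and 0.08 without. No value overlapped, and the difference was -1.25 (SE 0.22, adjusted p = 0.000266). LPD2, a lipoamide dehydrogenase that serves such complexes, read -1.03, -1.22 and -0.81 on the salt arrays and -0.01, -0.07 and 0.15 on the no-stress arrays. It was lower by -1.04 on the log2 scale (SE 0.23, adjusted p = 0.00254), with both groups close together.

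FBPase, fructose-1,6-bisphosphatase, read -0.61, -1.23 and -1.44 with salt and 0.03, -0.04 and 0.29 without on its first probe. Salt replicate 1 was nearest to the no-stress values but below them all. Its 2 probes differed by -1.18 (SE 0.30, adjusted p = 0.00839) and -1.10 (SE 0.29, adjusted p = 0.0108). Without salt replicate 3 both calls were lost (adjusted p = 0.058 and 0.0625). TK, the transketolase of the Calvin cycle, read -0.70, -0.79 and -1.12 on the salt arrays and -0.09, -0.16 and -0.02 on the no-stress arrays. Its difference was -0.78 (SE 0.21, adjusted p = 0.0133), against an adjusted p of 0.0848 without salt replicate 3, and its other probe gave -0.58 (adjusted p = 0.172). The uncalled members had values below 0: RPE, a pentose phosphate epimerase, at -0.53 and -0.26, and TPT, the triose phosphate carrier of the chloroplast, at -0.62 and -0.55 (adjusted p between 0.0535 and 0.451). With its probes averaged, TPT was called lower. The serine hydroxymethyltransferase gene SHMT was not tested because too few arrays held a value.

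In the light reactions only 6 of 15 clones had enough values to test, 1 was lower and none was higher, with a median of -0.37. That probe belongs to psbP, a protein of the oxygen-evolving complex, and read -0.60, -0.71 and -1.07 with salt and -0.01, -0.08 and -0.11 without. Although the groups did not overlap, its difference of -0.73 (SE 0.22, adjusted p = 0.0306) lost its call without salt replicate 2 or 3 or without no-stress replicate 1, 2 or 3 (adjusted p from 0.0567 to 0.158). The other psbP probe gave -0.41 (adjusted p = 0.158). PSBR, the other tested gene of the list, had differences from -0.50 to 0.69 on 4 probes, none of them called. With probes averaged per gene, neither of the 2 genes was called. Neither cab1 nor PSBO, another protein of the oxygen-evolving complex, could be tested.

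**Figure D3:**
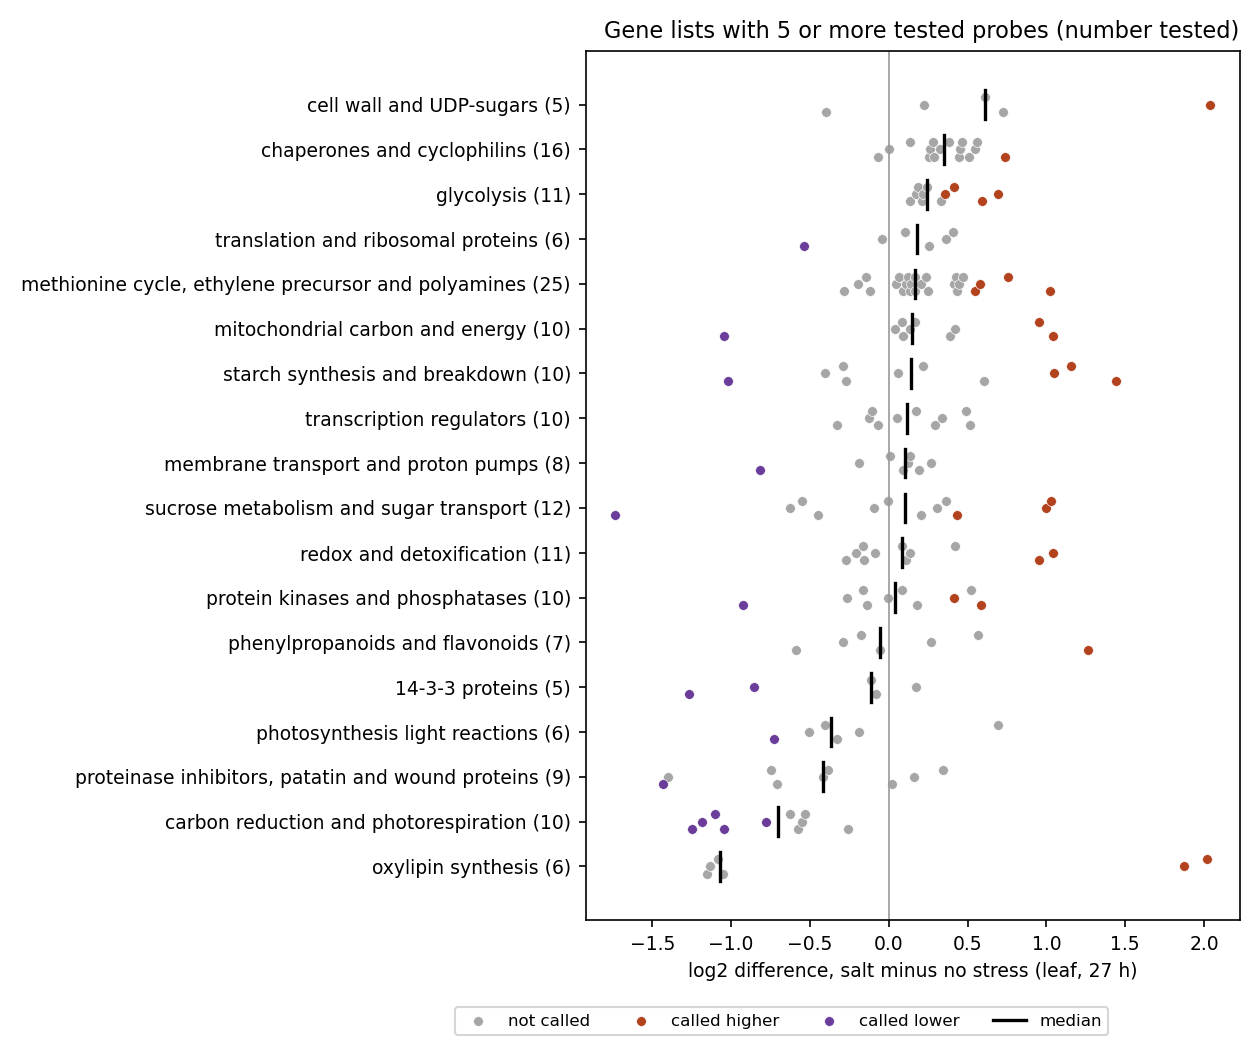
Each point is a tested probe of a gene list, placed by its log2 difference between salt and no stress in leaf at 27 h; colours mark probes called higher or lower, black bars the list medians, and numbers in brackets the probes tested, for the 18 lists with at least 5. Carbon reduction and photorespiration has 5 lower and no higher probes around a median of -0.70, and glycolysis has 4 higher and no lower probes around 0.24.

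The glycolysis list held 3 genes, PGAM, PK and GAPDH, the last with 8 of its 11 probes. Of the 11 probes 4 were higher and none was lower, with a median of 0.24. GPI, by its symbol an isomerase of the same pathway outside the list, had -0.38 and -0.28, neither called. PGAM, a phosphoglycerate mutase, read 0.50, 0.55 and 0.47 with salt and 0.04, -0.09 and -0.21 without on its first probe, a difference of 0.59 (SE 0.11, adjusted p = 0.000634). Its values were small but tightly grouped. The second PGAM probe was higher by 0.35 (adjusted p = 0.0323), PK, a pyruvate kinase, by 0.41 (adjusted p = 0.0348), and 1 of 8 probes of the glyceraldehyde phosphate dehydrogenase GAPDH by 0.69 (adjusted p = 0.0288). These 3 calls were fragile. The second PGAM probe lost its call without salt replicate 1, 2 or 3 or no-stress replicate 2 or 3 (adjusted p up to 0.134). PK and GAPDH lost theirs without salt replicate 3 (0.263 and 0.195) and without each no-stress replicate (0.0515 to 0.113).

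FDH, a mitochondrial formate dehydrogenase, read 1.04, 0.74 and 1.80 with salt and 0.09, -0.11 and 0.46 without on one of its probes. Replicate 3 was the highest in both groups. Both probes were higher, by 1.04 (SE 0.28, adjusted p = 0.011) and 0.95 (SE 0.24, adjusted p = 0.00687). Without salt replicate 3 neither passed (adjusted p = 0.114 and 0.0762), and without no-stress replicate 2 the first did not (0.0576). Quantile normalization ended both calls (0.061 and 0.0543). FDH supplied both higher probes of the list of mitochondrial carbon and energy genes (2 higher and 1 lower of 10, median 0.15) and both of the redox and detoxification list (2 higher, none lower of 11, median 0.08). The lower probe of the mitochondrial list was LPD2. AOX, the alternative oxidase, had a difference of 0.08 (adjusted p = 0.856).

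Several genes of amino acid and polyamine chemistry were called. METK1 makes S-adenosylmethionine, the methyl donor and precursor of ethylene and polyamines, and 3 of its 7 tested probes were higher, at 0.75, 0.58 and 0.55. The first read 0.59, 0.94 and 0.86 with salt and 0.04, 0.13 and -0.04 without (adjusted p = 0.00157). Its other 6 probes had differences from 0.41 to 0.58, so all 7 were above 0. Those at 0.58 and 0.55 (adjusted p = 0.0296 and 0.0416) lost their calls without salt replicate 2 or no-stress replicate 1 or 3. Without salt replicate 1 or no-stress replicate 2 the first of these also did not pass, nor did the second without salt replicate 3 (adjusted p up to 0.195 over these).

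TRI, a tropinone reductase of alkaloid synthesis, read 0.84, 0.78 and 1.08 with salt and -0.38, -0.07 and 0.08 without. The values stood apart by a difference of 1.02 (SE 0.27, adjusted p = 0.0112), which did not pass without salt replicate 3 (0.0551) or no-stress replicate 1 (0.0559). In the list of the methionine cycle, ethylene precursor and polyamines, 4 of 25 probes were higher and none was lower, with a median of 0.17. The calls were those of METK1 and TRI. None of the 8 probes of SAMDC, a gene of polyamine synthesis, was called, at -0.19 to 0.17. MS (5 probes), METK2, ARD and TS had no called probe either. SpdSy, a spermidine synthase outside that list, read 0.75, 1.10 and 0.11 with salt and 0.17, 0.01 and -0.47 without. Salt replicate 3 fell among the no-stress values, and the difference of 0.75 (SE 0.22, adjusted p = 0.0242) did not pass without salt replicate 1 or 2 or no-stress replicate 3 (adjusted p = 0.0737, 0.18 and 0.165).

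Genes of sulfur and cysteine chemistry were called in both directions. Stmet3-1, an ATP sulfurylase that activates sulfate, read -1.03, -0.93 and -0.67 with salt and 0.04, 0.03 and -0.07 without. The groups were well apart at -0.88 (SE 0.17, adjusted p = 0.000818), and the gene's other probe gave -0.53 (adjusted p = 0.0948). The related gene met3-2 had -0.23 and was not called. CS-B, a cysteine synthase, was lower on 2 of 5 probes, at -0.68 and -0.62 (adjusted p = 0.0149 and 0.032). Both calls were lost without salt replicate 2 (0.104 and 0.178) or no-stress replicate 3 (0.158 and 0.216), and the second also without no-stress replicate 1 (0.0506). PCAS-1 was higher by 0.64 on 1 of 2 probes (adjusted p = 0.0224; 0.24 and 0.604 on the other), a call lost without salt replicate 2 or 3 or no-stress replicate 2 (0.128, 0.0919 and 0.0958).

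CCoAOMT, a methyltransferase of lignin precursors, read 1.11, 1.04 and 1.67 with salt and 0.19, -0.23 and 0.08 without. It was higher by 1.26 (SE 0.30, adjusted p = 0.00459), with a wide gap between the groups. It was the only called probe of 7 in the list of phenylpropanoids and flavonoids, whose median was -0.06, or 0.42 over its 4 genes with probes averaged. FLS, a flavonol synthase, had differences from -0.59 to -0.06 on 4 probes, none of which passed. Of the remaining named genes with the largest increases, pp34 was higher by 1.15 (SE 0.29, adjusted p = 0.00804) and an34 by 0.80 (SE 0.18, adjusted p = 0.00325). pp34 read 1.28, 1.91 and 1.16 with salt and 0.14, 0.58 and 0.20 without. Without salt replicate 2 it did not pass (0.0686), and with quantile normalization between arrays its difference was 0.53 (adjusted p = 0.341).

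Among signalling genes, StMPK4, a mitogen-activated protein kinase, was higher on both probes by 0.71. One read 0.61, 0.42 and 0.72 with salt and -0.04, -0.24 and -0.10 without (SE 0.15, adjusted p = 0.00191). The groups did not overlap on either probe, but the other call (adjusted p = 0.0168) was lost without salt replicate 3 or no-stress replicate 2 (0.0991 and 0.069). The list of protein kinases and phosphatases, which does not hold StMPK4, had 2 higher (20%) and 1 lower (10%) of 10 probes and a median of 0.04, or -0.01 over its 9 genes. Its higher probes were PKIN1, at 0.58 (adjusted p = 0.0149, lost without salt replicate 1 or 3 or no-stress replicate 2 at up to 0.0681), and PK. Its lower probe was IPMK, an inositol polyphosphate kinase, at -0.92 (adjusted p = 0.0147), which did not pass without salt replicate 2 or 3 or no-stress replicate 1 (0.0518, 0.113 and 0.0509). PK and IPMK act on metabolites and not on proteins.

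GP-alpha-1 was higher by 0.50 on 1 of 2 probes (adjusted p = 0.011), against 0.35 (adjusted p = 0.0935) on the other. The call was lost without salt replicate 2 or 3 or no-stress replicate 3 (at up to 0.075). No probe of the list of transcription regulators was called by limma at the adjusted threshold, higher or lower, among 10 tested with a median of 0.11. StMYB1R-1, a MYB transcription factor outside the list, read 1.06, 0.93 and 0.19 with salt and 0.21, 0.29 and -0.10 without. Salt replicate 3 overlapped the no-stress values. Its difference of 0.59 (SE 0.20, adjusted p = 0.0433) was lost on leaving out any array but salt replicate 3 (adjusted p from 0.0506 without no-stress replicate 2 to 0.212 without salt replicate 1). With quantile normalization it was 0.30 (adjusted p = 0.434).

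Both Aux/IAA genes, repressors of auxin responses, were lower. They were the only genes matched to the planned list of abscisic acid and hormone response. Its 2 lower of 2 probes (median -0.63) therefore only restate these genes. GA2OX1, by its symbol a gibberellin oxidase gene outside the list, had -0.17 and was not called. IAA2 read -0.58, -0.34 and -0.36 with salt and -0.12, 0.41 and 0.52 without, a difference of -0.69 (SE 0.20, adjusted p = 0.0193). IAA3 read -0.56, -0.37 and -0.57 with salt and 0.02, 0.08 and 0.12 without, a difference of -0.57 (SE 0.17, adjusted p = 0.0275). Neither gene overlapped between groups. Both calls were lost without salt replicate 1 or no-stress replicate 2 or 3, and that of IAA3 also without salt replicate 3 (adjusted p from 0.064 to 0.116).

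PIN-II, a proteinase inhibitor gene of the wound response that occurs here under 2 locus numbers, was lower on 1 of 4 probes of the first. That probe read -1.12, -1.07 and -0.99 with salt and -0.01, 0.33 and 0.79 without, at -1.43 (SE 0.26, adjusted p = 0.000322). The salt values agreed closely while the no-stress values spread. The gene's other probes had differences of -1.40, -0.41 and -0.39 (adjusted p from 0.14 to 0.692), and on all 3 of them no-stress replicate 3 was the highest array, at 1.32 to 1.52. PIN-II of the second locus had -0.71 (adjusted p = 0.182). The list of proteinase inhibitors, patatin and wound proteins had 1 lower and no higher probe of 9, with a median of -0.42. Copies of such a family can bind each other's probes, so the locus is uncertain.

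The 14-3-3 gene 16R, whose family binds phosphorylated proteins, was lower on 2 of 3 probes, by -1.27 and -0.85 (adjusted p = 0.0328 and 0.0231). The first read -0.58, -0.54 and -0.35 with salt and -0.30, 1.45 and 1.18 without. On that probe no-stress replicates 2 and 3 were high, and on the other salt replicate 3 overlapped the no-stress values. Neither call survived the omission of salt replicate 1 or 2 or no-stress replicate 2 or 3, nor did the first survive that of salt replicate 3 (adjusted p from 0.0574 to 0.178). The list of 14-3-3 proteins thus had 2 lower probes of 5 and a median of -0.11.

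MIP2, a membrane intrinsic protein, a family that conducts water and small solutes, read -0.68, -1.10 and -0.65 with salt and -0.09, -0.08 and 0.18 without. It was lower by -0.82 (SE 0.22, adjusted p = 0.0111), a call lost without salt replicate 2 (0.077) or no-stress replicate 3 (0.0594). It was the 1 called probe of 8 in the list of membrane transport and proton pumps (12.5% lower, against 6.19% of all tested probes), with a median of 0.10. The plasma membrane proton pump genes PHA1 and PHA2 ranged from -0.19 to 0.27 and the potassium channel gene KST1 gave 0.09 and 0.19, none passing. EIF5A3, a translation factor, was lower by -0.54 (SE 0.13, adjusted p = 0.00518), at -0.42, -0.47 and -0.34 with salt and 0.08, 0.06 and 0.23 without. It was the 1 called probe of 6 in the list of translation and ribosomal proteins, whose median was 0.18.

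In the list of chaperones and cyclophilins 1 of 16 probes was higher and none was lower, with a median of 0.35. That probe was 1 of 6 of the cyclophilin gene Cyp, at 0.74 (adjusted p = 0.0311), and it did not pass without salt replicate 3 (0.241) or no-stress replicate 1 or 2 (0.115 and 0.0971). The list of salt, drought and osmotic response could be tested with only 1 probe. This was Lea, a late embryogenesis abundant protein gene of the kind made in drying tissue, which read -0.07, -0.59 and -0.04 with salt and 0.24, 0.28 and 0.17 without. Its values with salt were the lower ones, but the difference of -0.46 did not pass (adjusted p = 0.223).

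Settings other than left-out arrays ended further calls of named genes. Quantile normalization ended those of an34 (adjusted p = 0.0526), IPMK (0.0563), psbP (0.0761), TK (0.0823), MIP2 (0.128) and SpdSy (0.135). It also ended those of CS-B (0.153 and 0.273), PCAS-1 (0.092), all 3 probes of METK1 (0.0511 to 0.124), PK (0.148), the second PGAM probe (0.0562), Cyp (0.0538) and SI1 (0.0589, or 0.055 with array medians subtracted). With only the salt and no-stress 27 h arrays in the fit, both 16R probes (0.0597 and 0.0851), SpdSy (0.0896), StMYB1R-1 (0.12), CS-B (0.0832 and 0.0673) and GP-alpha-1 (0.0538) did not pass. Nor did PK (0.109), the METK1 probe at 0.58 (0.111), the second PGAM probe (0.0781) or Cyp (0.0675).

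With either the first or the second spot alone, 15 called probes of named genes no longer passed, at adjusted p from 0.0502 to 0.175. On the first 16R probe, quantile normalization gave -2.07 in place of -1.27, and the salt arrays alone were at -0.49 against 0 (adjusted p = 0.209).

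Clones with no gene annotation made up most of the array and were called at the share of all probes. Of 9105 such tested probes 510 were higher and 584 were lower (12%), at differences from -2.38 to 5.75. The highest, spot 142983, read 6.00, 6.21 and 5.96 with salt and 0.12, 0.29 and 0.51 without. Spot 141031 read 4.72, 4.59 and 4.44 with salt and 0.42 and -0.38 on the 2 no-stress arrays with a value, a difference of 4.56 (SE 0.42, adjusted p = 3.64e-08). Both exceeded any named gene. The lowest, spot 148005, read -2.03, -2.48 and -2.51 with salt and -0.11, 0.69 and -0.46 without, a difference of -2.38 (SE 0.28, adjusted p = 1.22e-06). Probes with a locus number only were 34 higher and 6 lower of 417 (9.59%), at called differences from -1.75 to 3.44.

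The 27 h values were set beside the earlier times to ask when the differences arose. At 3 h, 78 probes were higher (0.819%) and 7 lower (0.0735%) of 9524, 0.892% in all. At 9 h 364 were higher (3.86%) and 378 lower (4.01%) of 9436, 7.86% in all. Of the probes higher at 27 h that were also tested at 3 h, 71 of 568 were already higher (12.5%), which is 91.0% of those higher at 3 h. Of the lower ones, 7 of 605 were already lower (1.16%). At 9 h the counts were 241 of 552 higher (43.7%, or 66.2% of those higher at 9 h) and 212 of 606 lower (35.0%, or 56.1% of those lower at 9 h). None was called in the opposite direction at either time. The 3 times have separate arrays and share the estimate of spread.

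A test of the difference itself called 13 of 9406 probes between 27 h and 3 h (0.138%), 6 higher (0.0638%) and 7 lower (0.0744%) at 27 h, and 21 with a replicate block. Between 27 h and 9 h limma called 0 of 9300, with 432 at an unadjusted p under 0.05. None of the 13 carried a gene name. Spot 141031 was among them, at 1.74, 3.93 and 4.56 over 3, 9 and 27 h (adjusted p of the difference between 27 h and 3 h = 0.0264). Spot 148005 was too, at -0.38, -1.74 and -2.38 (adjusted p = 0.0264). The count of 13 ranged from 0, without salt 27 h replicate 2 or no-stress 3 h replicate 1, to 13 on leaving out single arrays, and it was at most 8 without any of them but salt 3 h replicate 2.

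Among named genes the courses differed by value. RSI5 was higher at all 3 times, by 1.64, 2.04 and 2.25, and STUGE45 by 1.32, 1.51 and 2.04. HPL stood at -0.00 at 3 h, 1.56 at 9 h and 2.02 at 27 h. R1 was not called before 27 h, with 0.37, 0.13 and 1.16, while GCVT, FBPase, agpS3 and InvCD141 were not called at 3 h and were lower at both later times. For no named gene did the difference between times pass, and the lowest of these adjusted p-values among the genes named here was 0.0893, for HPL between 27 h and 3 h.

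**Figure D4:**
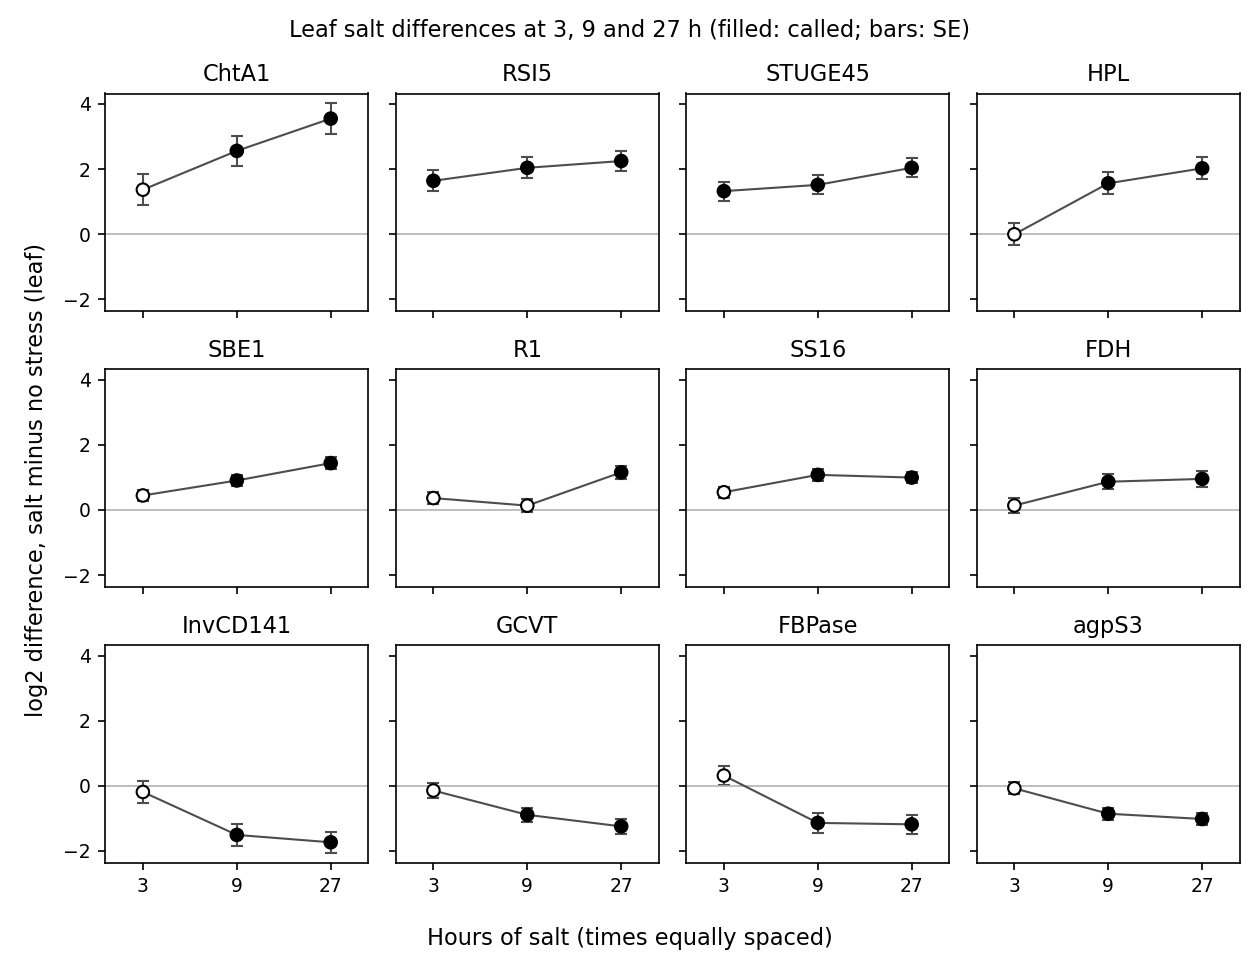
Log2 differences between salt and no stress in leaf are drawn at 3, 9 and 27 h for 12 named genes, with bars for the SE of limma's fit and filled points where the adjusted p is under 0.05. RSI5 and STUGE45 are filled at all 3 times and R1 at 27 h, and HPL lies at -0.00 at 3 h.

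Roots of the same treatment and time gave 155 higher (1.70%) and 66 lower (0.724%) of 9117 probes, 2.42% in all. Of the probes higher in salt leaves at 27 h, 106 of 548 tested in root were higher there (19.3%, or 68.4% of those higher in root), and of the lower ones 23 of 556 were lower there (4.14%, or 34.8% of those lower in root). None was called in the opposite direction. RSI5, STUGE45, HPL and CCoAOMT were higher in root too, at 1.46, 1.53, 1.46 and 1.18, and StMPK4 at 0.93 and 0.71. The test of leaf against root called 40 of 8888 probes (0.450%), 23 with the greater value in leaf (0.259%) and 17 with the smaller (0.191%). None of the 40 had a gene name, and 3 had a locus number only. Spot 148005, at -2.38 in leaf, was at 0.50 in root (adjusted p of the difference = 0.00188). The count fell to 25 without no-stress leaf replicate 1 and to 22 without no-stress leaf replicate 2.

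Salt was also set against cold at the same time, directly between the 2 sets of stress arrays. Against the same no-stress arrays, cold gave 2104 of 9634 called probes (21.8%), 1115 higher (11.6%) and 989 lower (10.3%). Because the no-stress arrays are shared, likeness between the 2 responses is not evidence by itself, and values are given side by side. ChtA1 had 3.55 with salt and 4.52 with cold, RSI5 2.25 and 2.84, STUGE45 2.04 and 2.23, SBE1 1.44 and 1.31, and R1 1.16 and 1.22. None of these differences passed in the direct test (adjusted p from 0.283 to 0.917).

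The direct test called 301 of 9638 probes (3.12%), 138 higher with salt (1.43%) and 163 lower (1.69%), 25 of them on 22 named genes. Higher with salt were StMPK4, by 0.81 (SE 0.15, adjusted p = 0.00326; 0.74 and 0.0609 on its other probe), and StMYB1R-1, by 0.74 (adjusted p = 0.0308). So were both probes of dpeP, a starch disproportionating enzyme, by 0.66 and 0.54 (adjusted p = 0.0245 and 0.0436), and 1 of 4 tested probes of the chaperone gene dnaJ, by 0.77 (adjusted p = 0.0213). Against no stress StMPK4 stood at 0.71 with salt and at -0.10 with cold on the first probe. With salt against no stress, neither dpeP probe was called (0.13 and 0.31), nor was any of 6 dnaJ probes (-0.07 to 0.46).

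Lower with salt than with cold were both probes of the WRKY gene STWRKY8, a transcription factor, by -1.49 and -1.36 (adjusted p = 0.035 and 0.0306). The quinone reductase NAD(P)H:QR was lower by -1.39 (adjusted p = 0.0245) and RBOHC, an NADPH oxidase that makes superoxide, by -1.23 (adjusted p = 0.0284). InvCD141 was lower by -1.18 (adjusted p = 0.0436). For STWRKY8, NAD(P)H:QR and RBOHC the values against no stress did not pass with salt (0.49, -0.13 and -0.20) and were higher with cold (1.98, 1.26 and 1.03). With only the salt and cold arrays in the fit the direct test called 0 probes (1461 at an unadjusted p under 0.05), with quantile normalization 8, and on leaving out single arrays from 42 without salt replicate 1 to 549 without salt replicate 3. The counts were also 84 without salt replicate 2, 172 without cold replicate 1 and 57 without cold replicate 2, and calls of single genes in this test depend on these choices.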

How the data were processed

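RNA was hybridised to 2-colour spotted arrays, and the authors deposited processed log2 ratios, a value for each spot and array, as the value table shows (array medians 0 to 0.014). Background correction, normalization and spot filter are steps not given in the sources used here. The pairing of duplicate spots was inferred from the spot numbering (15360 clones, median r between duplicates 0.83), and 905 clones carried an annotation on both spots with the same accession. GEO's platform annotation named 363 clones of 197 genes. No more than 3 arrays per group limit the precision.

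Spots were averaged. A group-means model over all 36 leaf arrays (12 groups) was fitted with limma 3.58.1 in R 4.3.3, using probes with at least 2 values in each group of a contrast; empty values were dropped, none imputed. Leaf minus root was fitted over leaf and root arrays together. Probes with a Benjamini-Hochberg adjusted p under 0.05 are called. The fit was also run on simulated data with independent noise of equal spread in all groups. That run checks the computation and not the calls made here. The text names the 15 genes with the highest and the 15 with the lowest median difference, among genes with a gene name and a called probe. For each difference between contrasts it names up to 4 per direction, and it names members of the planned gene lists. Genes with a locus number only were left out of this order, although some had larger differences. The comparison, the members and the lists were chosen with earlier results of these data known, and no list count is support for itself. PCAS-1, CS-B, GP-alpha-1 and PAIN-1 fall outside that rule and were chosen after their values were seen. Also outside it are PR1B, GPI, agpS2, met3-2 and GA2OX1, which are given beside related genes or lists. A planned search for promoter motifs was not run for want of sequences.

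The labels say that the experiment was done independently 3 times. Deviations of salt and no-stress arrays of the same number from their group means correlated at 0.17, 0.37 and 0.33. Between arrays of different numbers they correlated at -0.30 to 0.03. Each mean is over only 3 arrays and probes are not independent, so these values do not settle whether the numbers pair the samples. The main fit used no replicate block. The p-values measure the spread between pooled samples, estimated over all groups in the fit. Alternatives covered the groups in the fit, the replicate block, array weights, missing values, centring, quantile normalization, single spots, robust moderation, the size of the difference and each array left out.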

Additional observations from a re-analysis of the deposited data

Results flagged for a closer look

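The salt effect in leaf differed between 27 h and 3 h at 13 probes by limma's test of the difference, 6 higher and 7 lower, with differences from -2.0 to -1.16 and from 1.22 to 2.82. All 6 of the higher and all 7 of the lower were called at 27 h, and 2 of the higher ones were also called at 3 h. Of the 13, 12 had no annotation and 1 matched several symbols.

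The salt effect at 27 h differed between leaf and root at 40 probes, 23 higher in leaf (0.79 to 3.01) and 17 lower (-2.88 to -0.63). Of the 23, 18 were called in leaf and 6 in root. Of the 17, 15 were called in leaf and 2 in root. The fitted values of leaf and root had opposite signs at 9 of the 23 and at 13 of the 17. The root contrast rests on its own no-stress arrays.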

How the results depend on the processing

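The call of salt against no stress at 27 h (1192 probes) gave 862 with quantile normalization and 816 to 1007 on leaving out single arrays. It gave 1350 with a fixed and 1311 with a random replicate block, 2199 with array weights, 377 with a difference of at least 1, and 2785 with the salt arrays against 0. The replicate block ended the call of no gene named as called in this comparison.

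For 27 h minus 3 h (13 probes), limma called 61 with only the contrast's groups, 21 with a fixed replicate block, 115 with array weights, 8 with the first spot, 8 with the second spot, 0 with quantile normalization (831 at an unadjusted p under 0.05) and 0 to 13 without single arrays. For 27 h minus 9 h (0 probes) it called 2 with a fixed replicate block, 24 with array weights and 1 with a single value per group allowed. For salt minus cold (301) it called 0 with only the contrast's groups (1461 at an unadjusted p under 0.05), 1947 with array weights, 8 with quantile normalization, 76 with a difference of at least 1, and 42 to 549 without single arrays. For leaf minus root (40) it called 71 with only the contrast's groups, 379 with array weights, 18 with the second spot, and 22 to 41 without single arrays. The causes were not tested.

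Of 38 called probes of the 30 genes with the largest differences, 20 were called under all 18 settings that refit the comparison, and 16 of the genes had such a probe. Leaving out an array ended the call of 17 probes and quantile normalization that of 10. A pair of uncalled PIN-II probes (-0.41 and -0.39) changed sign: 1 was 0.002 with the salt arrays against 0, and on leaving out single arrays they ran from -0.901 and -0.801 to 0.108 and 0.118, the last without no-stress replicate 3. Direction of the ratio, dye effects without a swap and 3 arrays per group limit what these values can show.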

Other observations

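Counts at 27 h of salt are given for some of the further gene lists, drawn up after the annotation was seen. Of all tested probes 5.84% were called higher and 6.19% lower. Of 27 probes of respiratory chain, citric acid cycle and carrier genes, 2 were higher (7.41%) and 1 was lower (3.7%; median 0.15). Of 8 probes of MAP kinases and their phosphatase 2 were higher, both of StMPK4 (median 0.23). Calcium-dependent protein kinases had no called probe of 5 by limma's adjusted test (median 0.00). Of 17 probes of DNA-binding regulators 1 was higher, that of StMYB1R-1 (median 0.06). Sulfur amino acid enzymes had 4 higher and 3 lower of 27 (median 0.16), but 1 higher and 1 lower of 10 genes with probes averaged. Among 7 probes of chitinases, PR1, snakin and polyphenol oxidase the 2 higher ones were those of ChtA1 (median 0.57).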
